A study of Mus musculus with 16 samples.

Results

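Skeletal muscle sarcomere genes code for the contractile apparatus of striated muscle and for the proteins that feed and trigger it. Their levels were described in 16 arrays of subcutaneous PDA30364 tumors, a transplanted mouse pancreatic ductal adenocarcinoma line. The members are 34 genes chosen by name, and all 34 were measured, out of 18193 genes on the array. Each gene was represented by the probe set annotated to it alone that had the highest mean over the 16 arrays, and the 34 genes have 58 such probe sets in total. By fibre type, 14 members are typical of fast fibres, 6 of slow fibres, and 14 are used by both. All values are RMA log2 intensities, a microarray scale on which a difference of 1 is a doubling and on which dim probe sets level off at a background that differs between probe sets.

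The PDA30364 cells were injected into the flank of C57BL/6-Ly5.1 mice aged 6 to 12 weeks, and every tumor was removed whole and frozen, with no cell sorting. The 4 treatment groups had 4 arrays each. Control mice received vehicle and an isotype control antibody, anti-CD40 Ab mice an agonistic antibody against the costimulatory receptor CD40, GEM mice gemcitabine at 120 mg/kg, and GEM/anti-CD40 Ab mice both drugs. The antibodies were given on days 3, 4, 6 and 14 of treatment, gemcitabine or its vehicle on days 1, 5 and 12, and tumors were taken on day 22 or 23 after inoculation. The labels of GEM 3 and GEM 4 carry the same animal number, so these arrays may not be separate mice. RNA came from small pieces of each tumor, and the arrays thus show what was in the piece.

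A sarcomere is the repeating unit of the muscle fibre, in which myosin motors of the thick filament pull on actin of the thin filament. Calcium released from the sarcoplasmic reticulum binds troponin C, moves the troponin complex on the thin filament and allows myosin to bind. Fast and slow fibres use different genes for most of these parts, and superficial limb and trunk muscle of the mouse is mostly fast. A pancreatic carcinoma cell has no sarcomeres. In whole tumor RNA, fewer cells of a type and less RNA per cell cannot be told apart.

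The stretches that lie directly before the gene starts are shown for 5 members that the values below turn on, namely the neighbouring fast myosin genes Myh1 and Myh4, the fast and slow troponin C genes Tnnc2 and Tnnc1, and the creatine kinase gene Ckm. Each is the 250 bases before the start given by RefSeq for GRCm38.p6, read 5′ to 3′ on the gene's strand, and capitals mark matches to the E-box CANNTG, which myogenic regulatory factors bind, or to the MEF2 motif, both strands searched.
Myh1, chr11:67199852-67200101, plus strand: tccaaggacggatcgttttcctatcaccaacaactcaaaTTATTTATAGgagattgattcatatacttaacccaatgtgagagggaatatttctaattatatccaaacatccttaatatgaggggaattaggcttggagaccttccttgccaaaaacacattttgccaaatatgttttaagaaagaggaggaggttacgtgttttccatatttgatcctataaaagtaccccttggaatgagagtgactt
Myh4, chr11:67237562-67237811, plus strand: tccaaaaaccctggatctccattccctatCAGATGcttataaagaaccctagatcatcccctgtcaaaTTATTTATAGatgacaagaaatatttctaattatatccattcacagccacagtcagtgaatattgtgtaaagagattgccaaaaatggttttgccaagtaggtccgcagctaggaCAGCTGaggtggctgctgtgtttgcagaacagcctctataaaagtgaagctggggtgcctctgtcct
Tnnc2, chr2:164779735-164779984, minus strand: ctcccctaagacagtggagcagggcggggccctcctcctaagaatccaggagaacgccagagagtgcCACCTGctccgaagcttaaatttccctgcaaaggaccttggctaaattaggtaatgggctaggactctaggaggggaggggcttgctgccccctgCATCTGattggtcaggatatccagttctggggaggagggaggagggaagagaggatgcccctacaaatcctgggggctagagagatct
Tnnc1, chr14:31208062-31208311, plus strand: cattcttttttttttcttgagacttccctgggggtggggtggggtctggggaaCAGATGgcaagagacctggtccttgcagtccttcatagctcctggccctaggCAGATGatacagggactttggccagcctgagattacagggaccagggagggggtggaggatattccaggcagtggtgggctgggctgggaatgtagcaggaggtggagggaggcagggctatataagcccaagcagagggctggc
Ckm, chr7:19410844-19411093, plus strand: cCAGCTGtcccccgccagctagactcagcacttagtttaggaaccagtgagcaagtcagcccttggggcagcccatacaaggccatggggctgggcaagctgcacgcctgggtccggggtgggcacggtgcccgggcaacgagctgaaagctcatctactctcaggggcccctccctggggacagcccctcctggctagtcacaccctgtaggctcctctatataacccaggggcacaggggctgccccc

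The sequence table held 26 of the 34 members. An E-box lay in this window in 22 of those 26 genes and in 69.3% of all 27025 genes of the table. The E-box form CAGCTG, which is a part of the first count, lay in 12 of the 26 and in 14.7% of all genes, and the MEF2 motif in 4 of the 26, Myh1, Myh4, Pvalb and Ttn, and in 1.99% of all genes. No match shown overlaps another. These are matches of letters within one window, and no binding was measured.

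The widest differences in the members lay between single arrays of a group. The mean over the 34 members was 4.87, 5.65, 5.75 and 6.39 in control 1 to 4, and 4.69, 5.02, 4.59 and 5.44 in anti-CD40 Ab 1 to 4. It was 4.88, 5.05, 4.61 and 6.58 in GEM 1 to 4, and 4.83, 5.39, 4.80 and 10.59 in GEM/anti-CD40 Ab 1 to 4. GEM/anti-CD40 Ab 4 stood far above the other 15 arrays, GEM 4 and control 4 came next, and the 4 groups overlapped. Replicate 4 had the highest member mean in each group, and was highest for 29 of 34 members in controls, 24 for anti-CD40 Ab, 30 for GEM and 34 for GEM/anti-CD40 Ab. The labels do not say that a number marks a shared batch or day. The spread between the highest and the lowest array was 5.80 in the GEM/anti-CD40 Ab group, 1.97 in the GEM group, 1.52 in controls and 0.85 in the anti-CD40 Ab group. Group means with their SD (n = 4 arrays each) were 5.67 ± 0.62 for control, 4.94 ± 0.39 for anti-CD40 Ab, 5.28 ± 0.88 for GEM and 6.40 ± 2.81 for GEM/anti-CD40 Ab. Without its highest array, the SD of the GEM/anti-CD40 Ab group was 0.33 and that of the GEM group 0.22.

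All 34 members were highest in GEM/anti-CD40 Ab 4, by 0.61 to 5.52 over the next array, with a median lead of 4.00. The next array was GEM 4 for 23 members, control 4 for 9, control 2 for Myl3 and control 3 for Myh7. Of the 58 probe sets, 53 were highest in GEM/anti-CD40 Ab 4, and 8 varied by less than 1 over all arrays. Over all 18193 genes, 101 stood at least 2 above the next array in GEM/anti-CD40 Ab 4, of which 30 were members and 25 belonged to the list of other muscle genes described further on. Control 2 had 25 such genes, none of them a member, and each of the other 14 arrays had 0 to 3.

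**Figure D1:**
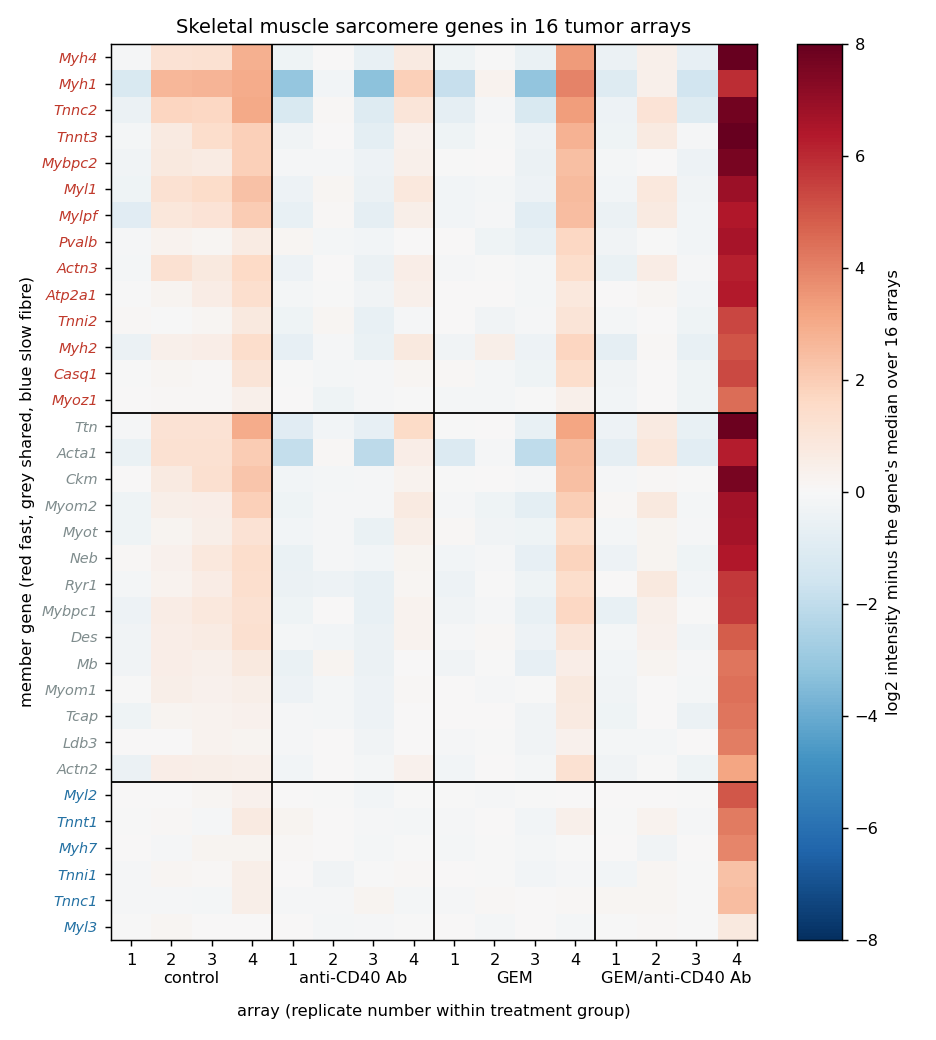
Log2 intensity of each of the 34 members (rows, red fast, grey shared, blue slow) minus the gene's own median over 16 arrays, for the 4 arrays of each treatment group (columns). GEM/anti-CD40 Ab 4 is the darkest column for every member, and GEM 4 and control 4 show raised fast and shared members but little change in slow members.

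Among the fast members, Myh4 encodes the motor of the fastest mouse fibres, type IIB. Its level was 3.29, 4.54, 4.59 and 6.24 in control 1 to 4, and 3.04, 3.39, 2.79 and 4.08 in anti-CD40 Ab 1 to 4. It was 3.06, 3.36, 2.84 and 6.80 in GEM 1 to 4, and 2.88, 3.75, 2.71 and 12.32 in GEM/anti-CD40 Ab 1 to 4. Myh4 was thus dim in most tumors and had the widest range of all members, 9.61. Its other probe set also peaked in GEM/anti-CD40 Ab 4, 5.75 above the next array, but lay between 2.79 and 3.22 elsewhere. It was at 3.14 in control 4 and 3.22 in GEM 4, and so did not show the rise of the chosen probe set there.

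The troponin subunits of fast fibres were also highest in GEM/anti-CD40 Ab 4, GEM 4 and control 4, in that order, and differed in the order of the lower arrays. Tnnc2, the calcium sensor of the fast thin filament, was at 5.30, 7.47, 7.45 and 8.84 in control 1 to 4 and at 4.56, 5.89, 4.76 and 6.72 in anti-CD40 Ab 1 to 4. It was at 5.03, 5.67, 4.58 and 9.15 in GEM 1 to 4 and at 5.35, 6.85, 4.75 and 13.50 in GEM/anti-CD40 Ab 1 to 4. Control 1 was the low array among the controls, and GEM 4 lay 3.48 above the next GEM array.
Tnnt3, which anchors the troponin complex to tropomyosin, was at 4.26, 5.11, 5.81 and 6.31 in control 1 to 4 and at 4.11, 4.42, 3.66 and 4.73 in anti-CD40 Ab 1 to 4. It was at 4.09, 4.41, 4.01 and 7.20 in GEM 1 to 4 and at 4.09, 5.15, 4.31 and 12.38 in GEM/anti-CD40 Ab 1 to 4. Tnni2, the inhibitory subunit, ranged from 6.54 to 8.16 in the other 15 arrays and reached 12.52 in GEM/anti-CD40 Ab 4.

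Mylpf, the phosphorylatable regulatory light chain of fast myosin, was at 5.40, 7.18, 7.37 and 8.33 in control 1 to 4 and at 5.69, 6.37, 5.57 and 6.77 in anti-CD40 Ab 1 to 4. It was at 6.09, 6.20, 5.45 and 8.77 in GEM 1 to 4 and at 5.84, 7.0, 6.05 and 12.72 in GEM/anti-CD40 Ab 1 to 4. As for Tnnc2, 3 control arrays, GEM 4, GEM/anti-CD40 Ab 2 and GEM/anti-CD40 Ab 4 lay above all anti-CD40 Ab arrays.
Atp2a1, the calcium pump that refills the sarcoplasmic reticulum of fast fibres, was at 5.61, 5.86, 6.26 and 7.0 in control 1 to 4 and at 5.48, 5.60, 5.36 and 6.09 in anti-CD40 Ab 1 to 4. It was at 5.66, 5.66, 5.53 and 6.52 in GEM 1 to 4 and at 5.66, 5.81, 5.44 and 12.02 in GEM/anti-CD40 Ab 1 to 4. For this gene control 4 lay above GEM 4. The other fast members peaked in GEM/anti-CD40 Ab 4 as well, at 12.40 for the light chain Myl1, 12.38 for the thick filament protein Mybpc2, 11.21 for the calcium buffer Pvalb, 11.03 for the Z-disc actinin Actn3, 10.85 for the calcium store Casq1, 9.62 for the type IIA myosin Myh2 and 9.33 for the Z-disc protein Myoz1.

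Myh1, the myosin of type IIX fibres, departed from its neighbour Myh4, which follows it on chromosome 11. Myh1 was at 4.84, 8.68, 8.74 and 8.99 in control 1 to 4 and at 2.93, 5.80, 2.75 and 7.95 in anti-CD40 Ab 1 to 4. It was at 4.23, 6.30, 2.92 and 10.01 in GEM 1 to 4 and at 5.00, 6.47, 4.51 and 11.97 in GEM/anti-CD40 Ab 1 to 4. Control 3 and control 2 lay only 0.25 and 0.31 below control 4 for Myh1, but 1.65 and 1.70 below it for Myh4. A second Myh1 probe set gave nearly the same values, for example 8.58 in control 2, 9.88 in GEM 4 and 11.94 in GEM/anti-CD40 Ab 4, and the remaining one was flat, between 5.07 and 5.46. The adult myosin heavy chain genes are close copies, and a probe set annotated to one of them may take up transcripts of another, which was not tested.

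In the group used by both fibre types, Acta1, the actin of the skeletal muscle thin filament, was the member with the highest intensity in 12 of the 16 arrays. It was at 7.27, 9.03, 9.02 and 9.85 in control 1 to 4 and at 5.87, 7.89, 5.69 and 8.36 in anti-CD40 Ab 1 to 4. It was at 6.69, 7.71, 5.77 and 10.31 in GEM 1 to 4 and at 7.08, 8.70, 6.93 and 14.05 in GEM/anti-CD40 Ab 1 to 4. Acta1 spread widely also among arrays in which Myh4 varied less. In anti-CD40 Ab 1 to 3 Acta1 ran from 5.69 to 7.89 and Myh4 from 2.79 to 3.39, with the arrays in the same order.
Ckm, the muscle creatine kinase that regenerates ATP, was at 5.55, 6.24, 6.85 and 7.75 in control 1 to 4 and at 5.33, 5.42, 5.44 and 5.85 in anti-CD40 Ab 1 to 4. It was at 5.49, 5.55, 5.48 and 7.95 in GEM 1 to 4 and at 5.48, 5.63, 5.51 and 13.13 in GEM/anti-CD40 Ab 1 to 4. On this chosen probe set Ckm was raised in control 2 to 4, in GEM 4 and in GEM/anti-CD40 Ab 4. It lay between 5.33 and 5.85 in the other 11 arrays. The other Ckm probe set was at 7.79 in GEM/anti-CD40 Ab 4 and between 5.25 and 5.72 elsewhere, with 5.48 in control 4 and 5.58 in GEM 4.
The other shared members reached between 8.01 and 11.94 in GEM/anti-CD40 Ab 4. These include the giant elastic protein gene Ttn at 11.82, the intermediate filament gene Des at 11.94, the thick filament protein gene Mybpc1 at 10.37, the oxygen store Mb at 10.27, the calcium release channel Ryr1 at 10.03, the thin filament ruler Neb at 9.79, the M-band genes Myom1 at 9.49 and Myom2 at 10.35, and the Z-disc genes Myot at 10.16, Tcap at 10.04, Ldb3 at 8.32 and Actn2 at 8.01.

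The slow-fibre members varied little in nearly all tumors. Without detection calls, background cannot be told from a steady low level, and Tnnc1 and Myl3 had means above the median probe set, 5.62. Myh7, the slow and cardiac myosin, was at 4.40, 4.23, 4.58 and 4.56 in control 1 to 4 and at 4.43, 4.37, 4.19 and 4.32 in anti-CD40 Ab 1 to 4. It was at 4.18, 4.34, 4.22 and 4.32 in GEM 1 to 4 and at 4.38, 4.09, 4.41 and 8.23 in GEM/anti-CD40 Ab 1 to 4. Only GEM/anti-CD40 Ab 4 departed from the range of 4.09 to 4.58.
Tnnc1, the slow troponin C, was at 6.20, 6.16, 6.13 and 6.73 in control 1 to 4 and at 6.19, 6.20, 6.50 and 6.12 in anti-CD40 Ab 1 to 4. It was at 6.16, 6.38, 6.30 and 6.37 in GEM 1 to 4 and at 6.43, 6.42, 6.27 and 8.76 in GEM/anti-CD40 Ab 1 to 4. Control 4 was the next array after GEM/anti-CD40 Ab 4, while GEM 4, so high in Tnnc2, lay within the range of the remaining arrays.
Tnni1, the slow inhibitory troponin, was at 4.75, 4.99, 4.94 and 5.29 in control 1 to 4 and at 4.86, 4.55, 4.83 and 4.93 in anti-CD40 Ab 1 to 4. It was at 4.89, 4.83, 4.64 and 4.73 in GEM 1 to 4 and at 4.62, 5.02, 4.84 and 7.22 in GEM/anti-CD40 Ab 1 to 4. Again control 4 and not GEM 4 came next.
Tnnt1, the slow tropomyosin-binding troponin, was at 4.72, 4.86, 4.65 and 5.46 in control 1 to 4 and at 4.96, 4.79, 4.70 and 4.62 in anti-CD40 Ab 1 to 4. It was at 4.68, 4.82, 4.57 and 5.20 in GEM 1 to 4 and at 4.74, 5.05, 4.66 and 8.90 in GEM/anti-CD40 Ab 1 to 4. Here GEM 4 exceeded the next GEM array by 0.38, against 0.04 for Myl2, the other slow member that was highest in GEM 4 within its group.
Myl2, the slow and ventricular regulatory light chain, was at 3.46, 3.49, 3.57 and 3.79 in control 1 to 4 and at 3.43, 3.40, 3.22 and 3.42 in anti-CD40 Ab 1 to 4. It was at 3.38, 3.31, 3.39 and 3.43 in GEM 1 to 4 and at 3.43, 3.49, 3.42 and 8.37 in GEM/anti-CD40 Ab 1 to 4. It had the widest range among slow members, 5.15, although the other 15 arrays differed by 0.57 at most.
Myl3, the slow essential light chain, was at 5.92, 6.09, 5.95 and 5.94 in control 1 to 4 and at 5.98, 5.80, 5.83 and 5.90 in anti-CD40 Ab 1 to 4. It was at 5.96, 5.80, 5.98 and 5.79 in GEM 1 to 4 and at 5.89, 6.02, 5.93 and 6.70 in GEM/anti-CD40 Ab 1 to 4. The probe set chosen for its mean is nearly flat here, while another Myl3 probe set ranged over 3.63 and stood 2.92 above the next array in GEM/anti-CD40 Ab 4.

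Fast and slow members were set side by side as the deviation of each gene from its own median over the 16 arrays, averaged within a class. In GEM/anti-CD40 Ab 4 the mean deviation was 6.48 for fast, 5.55 for shared and 3.09 for slow members. In GEM 4 it was 2.10, 1.49 and 0.04, in control 4 it was 1.74, 1.27 and 0.36, and in control 3 and control 2 the fast members deviated by 0.90 and 0.82 and the slow members by 0.03 each. The fast minus slow difference was thus 3.39 in GEM/anti-CD40 Ab 4, 2.06 in GEM 4, 1.38 in control 4, 0.87 in control 3, 0.79 in control 2 and 0.58 in anti-CD40 Ab 4, and lay between -0.63 and 0.28 in the other 10 arrays. GEM/anti-CD40 Ab 4 had 5 of 6 slow members at least 1 above their median, and no other array had any. The level at which a dim probe set begins to respond differs between genes, so a slow member near background gives no bound on slow fibres.

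**Figure D2:**
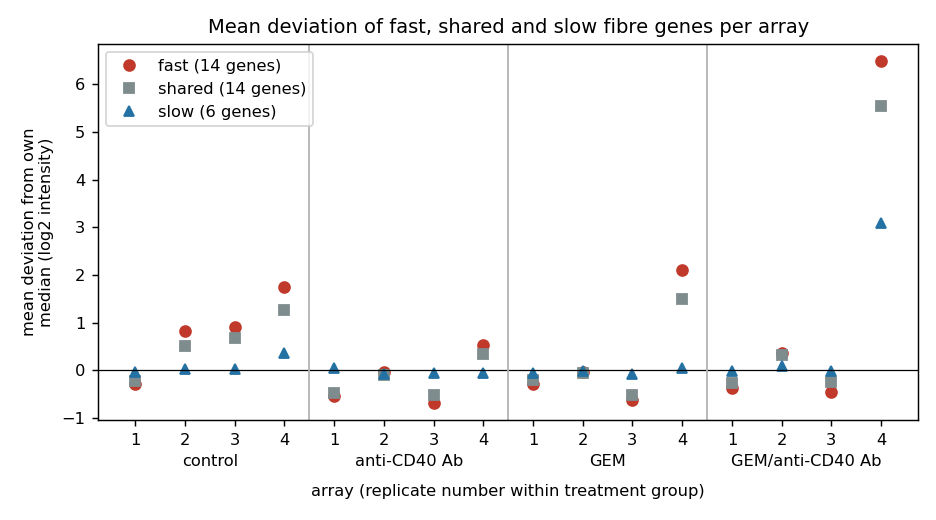
Mean deviation from the gene's own median (log2 intensity) for the 14 fast, 14 shared and 6 slow members in each array, grouped by treatment. Fast and shared members deviated together by up to 2.10 in GEM 4 and 1.74 in control 4, where slow members deviated by 0.04 and 0.36.

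The excess over a gene's own median was also expressed on the linear scale, as a percentage of the excess in GEM/anti-CD40 Ab 4. In GEM 4 the median was 2.44% for fast, 3.28% for shared and -0.09% for slow members, and in control 4 it was 2.29%, 2.72% and 2.43%. Control 4 thus held similar percentages of fast and slow excess, whereas GEM 4 held fast and shared excess with a slow median near 0. Single slow members spread widely, from 0.50% for Myl3 to 8.55% for Tnni1 in control 4 and from -13.7% for Myl3 to 2.12% for Tnnt1 in GEM 4. With 6 slow genes that are dim or nearly flat, these medians are descriptions of 1 array each, with no replicate. In control 3 the medians were 0.65% for fast, 1.13% for shared and 0.79% for slow members, and in anti-CD40 Ab 4 they were 0.40%, 0.32% and -0.38%.

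Among fast members, Myh1 was set apart on this scale. Its excess was 24.5% of that in GEM/anti-CD40 Ab 4 in GEM 4, 11.2% in control 4, 9.16% in control 3 and 8.72% in control 2. Among the other 13 fast members the highest were Myh2 in GEM 4 at 6.94% and in control 4 at 5.17%, and Myh4 was at 1.98% and 1.28%. Of the shared members, Actn2 was at 16.9% in GEM 4 and 5.42% in control 2, and Acta1 at 6.25% in GEM 4 and 4.18% in control 4. The brightest probe sets may be compressed in GEM/anti-CD40 Ab 4, where Acta1 reached 14.05, and the part of that in these percentages was not tested.

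**Figure D3:**
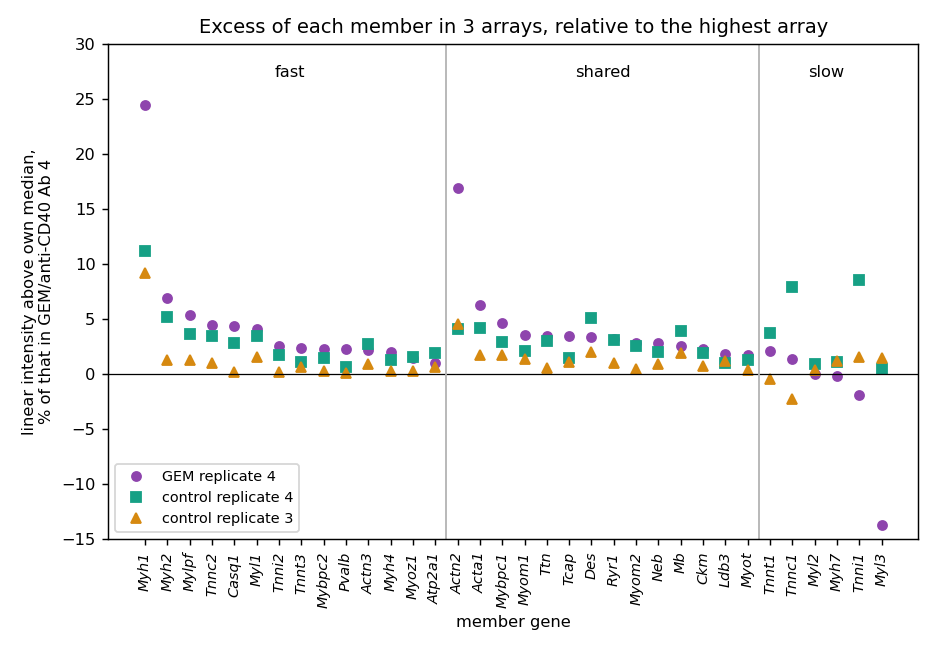
Linear intensity above the gene's own median in GEM 4, control 4 and control 3, as a percentage of the same quantity in GEM/anti-CD40 Ab 4, for each member by fibre class. Most fast and shared members lie under 7% in all 3 arrays, and Myh1 (24.5% in GEM 4) and Actn2 (16.9%) lie above the rest.

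Tumor arrays that share an animal number in their labels did not share muscle signal. The member mean was 1.97 higher in GEM 4 than in GEM 3, and 33 of 34 members were higher. GEM 3 had the highest mean of adipocyte genes of all arrays. Over all probe sets GEM 3 and GEM 4 correlated at r = 0.9948, compared with 0.994 to 0.9966 for the other pairs of GEM arrays.

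The members also varied together when the highest array was set aside. The Pearson correlation of each member with the mean of the other 33 had a median of 0.95 for fast, 0.94 for shared and 0.40 for slow members over the 15 arrays without GEM/anti-CD40 Ab 4, and 10 of 14 fast and 12 of 14 shared members exceeded 0.9. Tnnt1 had the highest slow value, 0.71, and Myl3 the lowest, -0.04. These describe arrays of 4 treatments that may partly share animals, and no test was made of them. Because the members move together, a count of members is not a count of independent measurements.

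For anti-CD40 Ab against control, all 34 members had a lower mean in treated tumors, by a median of 0.58 on the log2 scale (median log2 change -0.58, against -0.02 over all genes). By class the median log2 change was -0.89 for fast, -0.65 for shared and -0.14 for slow members. No member passed an adjusted p under 0.05 in limma's test on the 8 arrays, and 0.00% of the 45037 probe sets did (smallest adjusted p of a member = 0.807, limma). At an unadjusted p under 0.05, 15 of 34 members were lower and 0 higher, compared with 3.01% of all probe sets lower. With all 16 arrays in one fit, 0 of the 34 were lower at that p, and with a trended and robust variance prior 9 were. Myh1 had the largest log2 change, -2.96 ± 1.28 (± standard error), and Acta1 and Tnnc2 followed at -1.84 ± 0.70 and -1.78 ± 0.72. Myom1 of the M-band, with the smallest unadjusted p of the members, was at 5.06, 5.60, 5.45 and 5.60 in control 1 to 4 and at 4.68, 4.92, 4.69 and 5.18 in anti-CD40 Ab 1 to 4, a log2 change of -0.56 ± 0.15. The groups did not overlap for 2 members, Ldb3 and Myl2, compared with 1.62% of all probe sets, and both differences were small, -0.23 ± 0.09 and -0.21 ± 0.09. Without control 4 the median log2 change was -0.35 with 4 members lower at an unadjusted p under 0.05, and without control 1, the control with the lowest muscle signal, -0.84 with 28 members lower. The count was also 8 without control 2, 4 without control 3, 5 without anti-CD40 Ab 1 and 4 without anti-CD40 Ab 3.

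For GEM against control, all 34 means were again below control, with a median log2 change of -0.32 (all genes -0.0025). No member passed (smallest adjusted p = 0.852, limma), nor did any probe set, 0.00% of those tested. Only Myl2 had an unadjusted p under 0.05, with a log2 change of -0.20 ± 0.08 and groups that did not overlap. Over all probe sets 2.62% were lower at that p, and 1.63% were lower without overlap. Log2 changes ranged from -1.95 ± 1.48 for Myh1 to -0.0025 for Tnnc1. The size of this difference moved with several single arrays. The median log2 change was -0.62 without GEM 4, with 19 members lower at an unadjusted p under 0.05, and -0.56 without control 1, with 4 members lower. It was -0.19 without GEM 1, -0.14 without GEM 3 and -0.10 without control 4, with 10 members above 0 in the last case.

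For GEM/anti-CD40 Ab against control, 33 of 34 means were above control and the median log2 change was 0.80, with 0.83 for fast, 0.78 for shared and 0.75 for slow members. No member passed (smallest adjusted p = 0.691, limma), compared with 0.0178% of all probe sets, and 0 members had an unadjusted p under 0.05, compared with 9.58% of all probe sets. The standard error exceeded the change for 30 of 34 members, as for Tnnt3 at 1.11 ± 1.67 and Ckm at 0.84 ± 1.61, and was the smaller of the pair for the slow members Tnnc1, Myl2, Tnnt1 and Myh7. Myh1 was the member with a mean below control, -0.83 ± 1.63. The sign of this comparison rested on GEM/anti-CD40 Ab 4. Without it the median log2 change was -0.49 and 33 of 34 members lay below control, 8 of them at an unadjusted p under 0.05, and Acta1 was at -1.22, Ckm at -1.06 and Tnnc2 at -1.62.

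**Figure D4:**
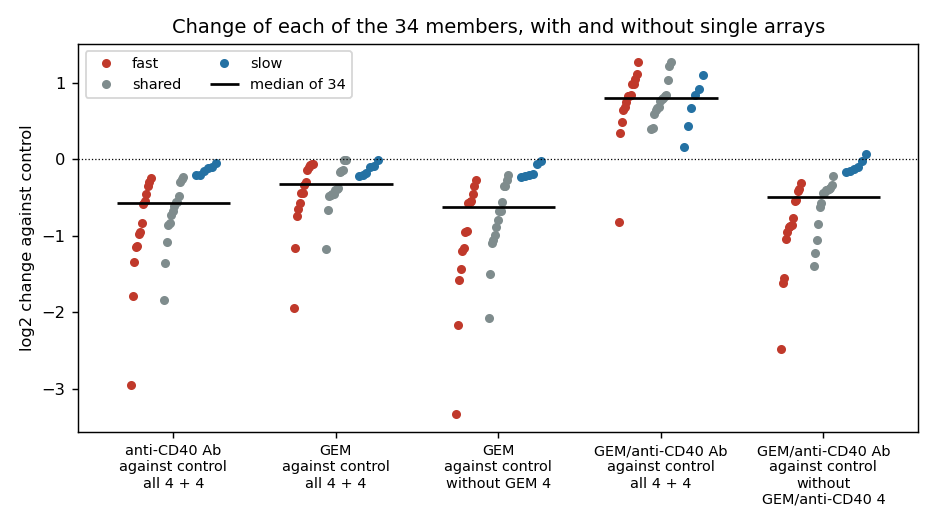
Log2 change against control of each member (points, by fibre class) and the median of the 34 (line), for the 3 treatments with all arrays and, for GEM and GEM/anti-CD40 Ab, without the array with the highest member mean. The GEM/anti-CD40 Ab median moved from 0.80 to -0.49 when GEM/anti-CD40 Ab 4 was left out.

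The combination was also compared with each single drug, and these comparisons share arrays with those above. Against GEM, all 34 means were higher, with a median log2 change of 1.21, and 0 members passed (smallest adjusted p = 0.602, limma, with 0.00% of all probe sets passing). None had an unadjusted p under 0.05, compared with 11.6% of all probe sets, and without GEM/anti-CD40 Ab 4 the median was -0.30. Against anti-CD40 Ab, all 34 were higher, with a median log2 change of 1.55, and 0 passed (smallest adjusted p = 0.937, limma, with 0.00% of all probe sets passing). None had an unadjusted p under 0.05, compared with 4.60% of all probe sets. Without GEM/anti-CD40 Ab 4 the median was 0.07, with 23 members above and 11 below 0.

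Other genes of skeletal muscle were taken from a list of 45, of which 43 were measured. Their mean was between 5.60 and 6.09 in 15 arrays and 8.58 in GEM/anti-CD40 Ab 4, where 37 of the 43 were highest, 32 of them by at least 1. None passed an adjusted p under 0.05 in any comparison, where 0.00% of all probe sets passed, or 0.0178% for GEM/anti-CD40 Ab against control. For anti-CD40 Ab against control 12 of 43 were lower at an unadjusted p under 0.05 and 0 higher, compared with 3.01% of all probe sets lower, and the smallest p belonged to Itgb1bp2, Lmod2, Sln and Smpx, with log2 changes of -0.28, -0.42, -1.17 and -0.61 (adjusted p = 0.807 each, limma). Of all genes that are no members, those most like the member mean by Pearson's r over the 16 arrays were Klhl41, Pdlim3, Smpx, Hspb7, Csrp3, Mustn1, Cryab, Trdn, Synpo2 and Trim63, at r = 0.980 to 0.991. Without GEM/anti-CD40 Ab 4, r was 0.882 to 0.959 for these 10 genes. Klhl41, at 0.991, was at 9.55 in GEM/anti-CD40 Ab 4, 5.78 in GEM 4, 4.58 in control 4 and 2.78 in GEM 3.

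Markers of other tissues were read in the same arrays. Cardiac muscle genes reached a mean of 5.07 in GEM/anti-CD40 Ab 4 against 4.48 to 4.87 elsewhere, and 6 of 9 varied by less than 1 over all arrays. Genes of myogenic cells and of immature fibres were at 4.95 in GEM/anti-CD40 Ab 4 against 4.10 to 4.50 elsewhere. Only 5 of these 10 genes were highest in GEM/anti-CD40 Ab 4, and 1 of them by at least 1. In that array Myf6, the regulator kept on in adult fibres, was at 6.51 against at most 3.94 elsewhere, and Myog at 6.12 against at most 5.35. The embryonic and neonatal myosins Myh3 and Myh8 were at 4.18 and 4.02 there, against at most 4.12 and 3.38 elsewhere.
Skin keratinocyte genes had a mean of 8.34 in control 2, 6.81 in anti-CD40 Ab 2 and 5.88 in GEM 4, and lay between 5.01 and 5.38 in the other 13 arrays, with 5.26 in GEM/anti-CD40 Ab 4. Krt14 of the basal epidermis was at 10.68 in control 2, 9.64 in anti-CD40 Ab 2 and 6.83 in GEM 4. Control 4, with the highest muscle signal of the controls, had the lowest skin mean of all arrays. Ivl at 7.95 and Sprr1a at 11.01 were lowest there, and both were bright in every array and not highest in control 2. Krt14 was at 4.90 in control 4 and lower, at 4.65, in control 1, so the low mean does not hold for each skin gene. Anti-CD40 Ab 2, with raised skin genes, had a member mean of 5.02.
The mean of the adipocyte genes was highest in GEM 3 at 7.42 and next in GEM/anti-CD40 Ab 4 at 7.19, against 6.45 to 6.82 in the other 14 arrays. Of the 9 genes, 5 varied by less than 1 over all arrays. In GEM/anti-CD40 Ab 4, 3 of the 9 were highest, 0 of them by at least 1. Adipoq, a hormone of fat cells, was at 7.44 in GEM 3, 5.66 in GEM/anti-CD40 Ab 4 and between 3.06 and 4.76 elsewhere. Endothelial genes were highest in GEM/anti-CD40 Ab 4 at 7.50, within reach of 7.42 in anti-CD40 Ab 1. Their part, and that of fat and skin, in the muscle values was not tested.
The smooth muscle list ranged from 6.16 to 7.17, with GEM 4 at 7.17 and GEM/anti-CD40 Ab 4 at 7.16. Only 1 of its 8 genes was highest in GEM/anti-CD40 Ab 4, Synpo2, at 9.19 against 6.53 in GEM 4. Synpo2 is also among the 10 genes most like the member mean, and it raises the list mean of GEM/anti-CD40 Ab 4. Actg2 was at 6.54 there and at 8.02 in GEM 3. Epithelial genes of the tumor kept a mean of 11.36 to 12.07 in all 16 arrays, with 11.95 in GEM/anti-CD40 Ab 4, 11.84 in GEM 4 and 11.58 in control 4. The keratins of that list are near the top of the intensity scale and may be compressed. The dimmer Cldn4, a tight junction gene, ranged from 6.93 in control 4 to 9.25 in GEM/anti-CD40 Ab 3, with 9.08 in GEM/anti-CD40 Ab 4, and Epcam was at 10.90 in control 4 and 12.07 in GEM/anti-CD40 Ab 4.

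**Figure D5:**
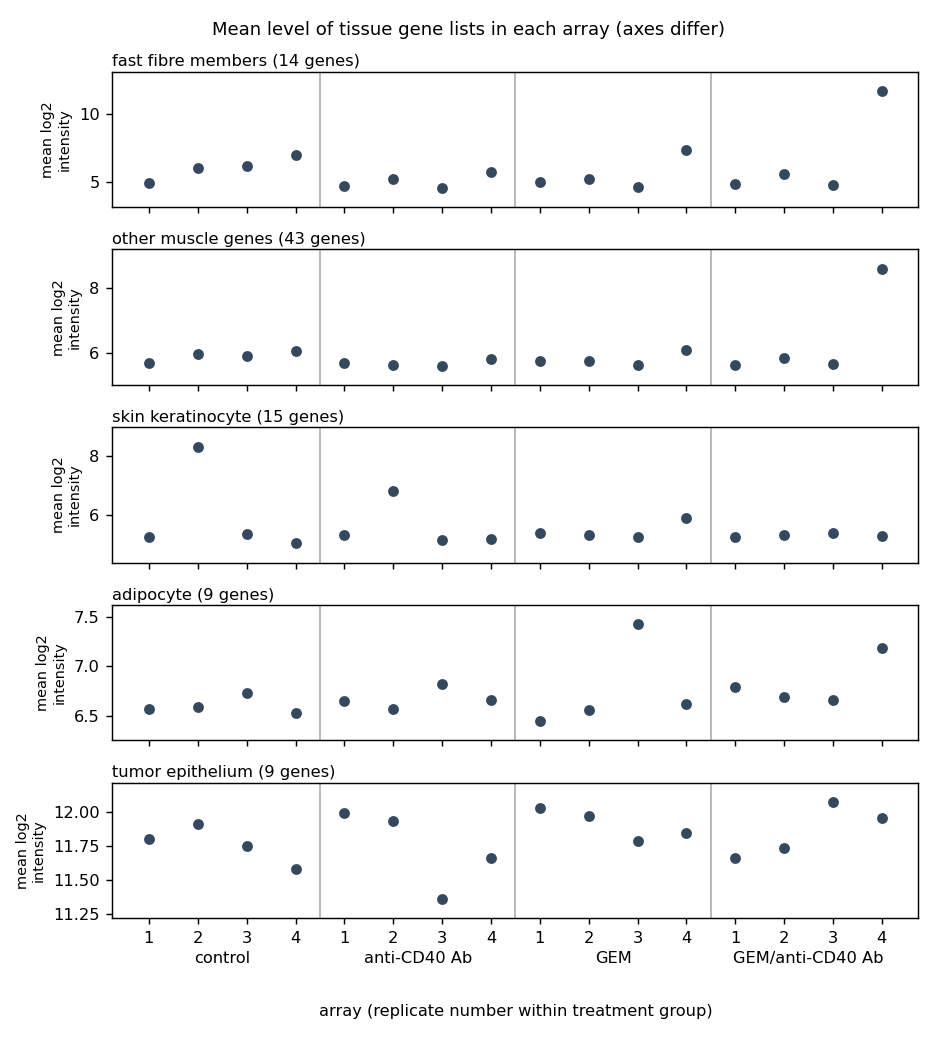
Mean log2 intensity of the fast members, other muscle genes, skin keratinocyte, adipocyte and tumor epithelium lists in each array, each panel on its own axis. The arrays that stand out differ between lists, GEM/anti-CD40 Ab 4 for muscle, control 2 and anti-CD40 Ab 2 for skin, and GEM 3 for fat cells.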

How the data were processed

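Total RNA of frozen tumor pieces was labelled with a 3′ amplification kit and hybridized to Affymetrix whole-genome mouse arrays. The authors normalized the arrays with RMA and deposited log2 values with 2 decimals. No source used here names the RMA software version, and the file has no detection calls. RMA sets all arrays to 1 distribution (array medians 5.60 to 5.66). Probe sets were named through the platform annotation and a RefSeq table of assembly GRCm38.p6. After leaving out 64 array controls, 45037 of 45101 probe sets were tested, of which 34945 had 1 gene, 932 several and 9160 none listed.

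The 8 arrays of each pair of groups were fitted without covariates in limma (version 3.58.1, under R 4.3.3), with two-sided p-values and Benjamini-Hochberg adjustment over all probe sets at 0.05. Errors are SD or limma's standard errors. The fit was tested on simulated data. Other values were computed in Python. Named genes follow a rule: 7 fast or shared and 6 slow members in every array, members that pass, and the nearest 10 other genes, with up to 4 other muscle genes and up to 3 per tissue list. The full values of Myh1 and Myom1, the count that names Ldb3, and Myh3 were added after the values were seen. The members and lists were chosen with earlier results of these data known. With 4 arrays per group precision is low, and replicate numbers were not taken to pair arrays. For this, each probe set was read as its deviation from its group mean. Over all probe sets 7 of 20 same-number correlations of these deviations exceeded 0.1. Replicate 4, however, had the highest member mean in every group. Its correlations with control on the same deviations were 0.207 for anti-CD40 Ab, 0.045 for GEM and 0.118 for GEM/anti-CD40 Ab. The deviations of GEM/anti-CD40 Ab 4 correlated at 0.273 with those of GEM 4, the highest of the 20, and at 0.107 with those of anti-CD40 Ab 4. Alternatives were other fits, filters, scalings, probe set choices, the block, averaging GEM 3 and 4, and leaving out arrays.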

Additional observations from a re-analysis of the deposited data

Results flagged for a closer look

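Each mean and each of 13 named genes was examined for 1 array standing apart from the other 3 of its group. Of 68 groups examined 22 had such an array. Chance gives about 5% for independent values, but the genes are not independent of each other and the means hold the same genes. The members were also chosen with earlier results of these data known, so the 5% is no reference for this count. GEM/anti-CD40 Ab 4 was the array standing apart 15 times. It was at 10.59 for the mean over the 34 members, 11.73 over the fast, 10.56 over the shared and 8.03 over the slow members. Among fast and shared genes it was at 13.13 for Ckm, 12.32 for Myh4, 12.38 for Tnnt3, 12.72 for Mylpf and 12.02 for Atp2a1. Among slow genes it was at 8.23 for Myh7, 8.76 for Tnnc1, 7.22 for Tnni1, 8.90 for Tnnt1, 8.37 for Myl2 and 6.70 for Myl3. The other 3 arrays of the group had member means of 4.80 to 5.39.

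GEM 4 stood apart in its group for Ckm at 7.95, Myh4 at 6.80, Tnnt3 at 7.20 and Atp2a1 at 6.52. Control 4 stood apart for the slow mean at 5.30, where the other controls were at 4.91 to 4.97, and for Tnnc1 at 6.73. Anti-CD40 Ab 3 was low for Myl2 at 3.22, a dim value that cannot be told from background.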

How the results depend on the processing

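No member passed an adjusted p under 0.05 in any of the 5 comparisons under any of the 18 or 19 alternatives each was given, with smallest adjusted p values of 0.245 to 0.796 (limma). The 0.245 came from the replicate block for anti-CD40 Ab against control, where 24 members were lower at an unadjusted p under 0.05, compared with 15 without it, 9 with a trended and robust prior, 5 with dim probe sets left out (14 members tested) and 0 with all 16 arrays in one fit. Over all probe sets the calls for GEM/anti-CD40 Ab against control were 8, and 0 to 44 under the alternatives. The median change kept its sign under every alternative for anti-CD40 Ab (-0.84 to -0.35) and GEM (-0.62 to -0.10) against control. For GEM/anti-CD40 Ab it was -0.53 to 1.31 against control, -0.30 to 1.80 against GEM and 0.07 to 2.14 against anti-CD40 Ab, with values below 0 where GEM/anti-CD40 Ab 4 was left out. The fast minus slow difference kept its sign in each array under the 5 alternatives tried, but not its size. It was 2.76 to 4.655 in GEM/anti-CD40 Ab 4, 1.79 to 2.26 in GEM 4 and 1.17 to 1.71 in control 4. Each was highest with dim probe sets left out, where 2 slow members remained.

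The spread of the member mean was 0.71 with GEM 3 and 4 averaged. When single arrays were left out it ranged from 0.75 to 1.52 in controls, 0.43 to 0.85 for anti-CD40 Ab, 0.44 to 1.97 for GEM and 0.59 to 5.80 for GEM/anti-CD40 Ab, each lowest without the highest array of the group, except in controls, where that was control 1. For anti-CD40 Ab against control, leaving out single arrays gave Tnnc1 -0.14 to 0.089 and Tnnt1 -0.25 to 0.024, and for GEM against control -0.061 to 0.14 and -0.23 to 0.074, each above 0 without control 4, and Tnnc1 was at 0.015 with array weights. For GEM/anti-CD40 Ab against control, single arrays left out gave Acta1 -1.22 to 1.15, Ckm -1.06 to 1.49, Myh4 -1.55 to 1.65, Tnnc2 -1.62 to 1.30, Tnnt3 -0.86 to 1.91, Mylpf -0.77 to 1.52, Atp2a1 -0.55 to 1.65, Myh7 -0.15 to 1.23, Tnni1 -0.17 to 0.70, Tnnt1 -0.11 to 1.31, Myl2 -0.13 to 1.52 and Myl3 -0.028 to 0.24. Leaving out control 2, anti-CD40 Ab 2 and GEM/anti-CD40 Ab 4 together, chosen after seeing the data, gave Acta1 -1.14, Ckm -1.18, Myh4 -1.59, Tnnc2 -1.55, Tnnt3 -0.94, Mylpf -0.74, Atp2a1 -0.65, Myh7 -0.22, Tnni1 -0.17, Tnnt1 -0.13 and Myl2 -0.16.

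The cause of these changes was not tested beyond leaving arrays out. The arrays give no detection call, and the slow members are nearly flat in all but 1 or 2 arrays, so small differences among them carry little information.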
